A study of Sus scrofa with 63 samples.

Results

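The jejunum of purebred Meishan (MS) fetuses was compared with that of purebred Large White (LW) fetuses at day 90 of gestation. The comparison took every array that the labels place in these groups, 6 MS and 9 LW fetuses, which were 15 of the 63 fetuses of the series. Each fetus had 1 one-colour Agilent porcine array with jejunum RNA, and all fetuses were male per the methods of the study. The other 48 arrays held purebred fetuses at day 110 and both reciprocal crosses at both ages, named LWMS (LW sire, MS sow) and MSLW (MS sire, LW sow). An MS fetus had an MS sow and an LW fetus an LW sow, so the breed of the fetus and that of its sow cannot be told apart in the purebred groups. The sow of each fetus is not given in the labels, so litter mates count as independent fetuses. The p-values rest on the spread between fetuses within groups, pooled over all 63 arrays and not only these 15.

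The jejunum is the middle stretch of the small intestine, where enterocytes digest and take up sugars, fats and amino acids. In late gestation its epithelium prepares for milk, and the fetal gut still carries features shared with the fetal liver, among them enzymes of drug and steroid metabolism and proteins of blood plasma. MS piglets are known for good survival at birth, whereas LW is a breed selected for growth. In RNA of a whole tissue, fewer cells of a type and less RNA per cell cannot be told apart.

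Levels are log2 background-corrected signals less the 75th percentile of each array, and differences are MS minus LW on the log2 scale, so that 1 stands for a 2-fold difference. A probe was called with limma where its adjusted p did not exceed 0.01 and its absolute difference reached 0.5, and a gene was represented by its brightest tested probe. Of 11200 genes, 466 were called (4.16%), of which 201 were higher (1.79%) and 265 lower (2.37%) in MS. The 40515 probes tested gave 1449 calls (3.58%), 553 higher (1.36%) and 896 lower (2.21%), and 510 of the called probes carried no gene name. At an unadjusted p under 0.05, 7298 probes differed. The median difference over all genes was 0.06, and the median absolute difference of the called genes was 1.13, with 93 of them at 2 or more. In 323 genes (2.88%) the 6 MS and the 9 LW fetuses did not overlap, and 227 of the 466 called genes were among them (2.03% of all genes), 90 with MS above LW and 137 with MS below LW. Over all genes, MS lay entirely above LW in 136 (1.21%) and below it in 187 (1.67%).

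Between 56.7 and 73.9% of the probes on the LW arrays, and between 63.5 and 75.1% on the MS arrays, were well above background. The arrays of LW fetus 484 and MS fetus 532 stood apart, with a median correlation with the other arrays of their group of 0.925 and 0.939, while the remaining arrays lay between 0.958 and 0.983. Without these fetuses, 402 genes were called. Both groups shared 6 of the 8 slides. On all 6 of them the difference within the slide had the sign of the fit in 417 of the 466 called genes (89.5%). The share over all genes was 19.3%, and on 5 slides another 46 called genes had that sign. The same arrays gave the calls, so a high share among called genes was built in and is no separate support. Enterocyte markers were measured in both breeds, with mean levels of 3.45 to 3.99 in LW and 3.70 to 4.15 in MS, and 0 of the 13 tested were called, with the hydrolases and uptake genes given with the lists. Of 10 erythroid markers tested, 4 were higher in MS and none lower, where 1.79% of all genes were higher. With quantile normalization or the authors' values 2 were called. The mean level of the 10 markers spanned -1.10 to 0.51 in LW and 0.22 to 1.48 in MS. The part of blood cells in the results was not tested.

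**Figure D1:**
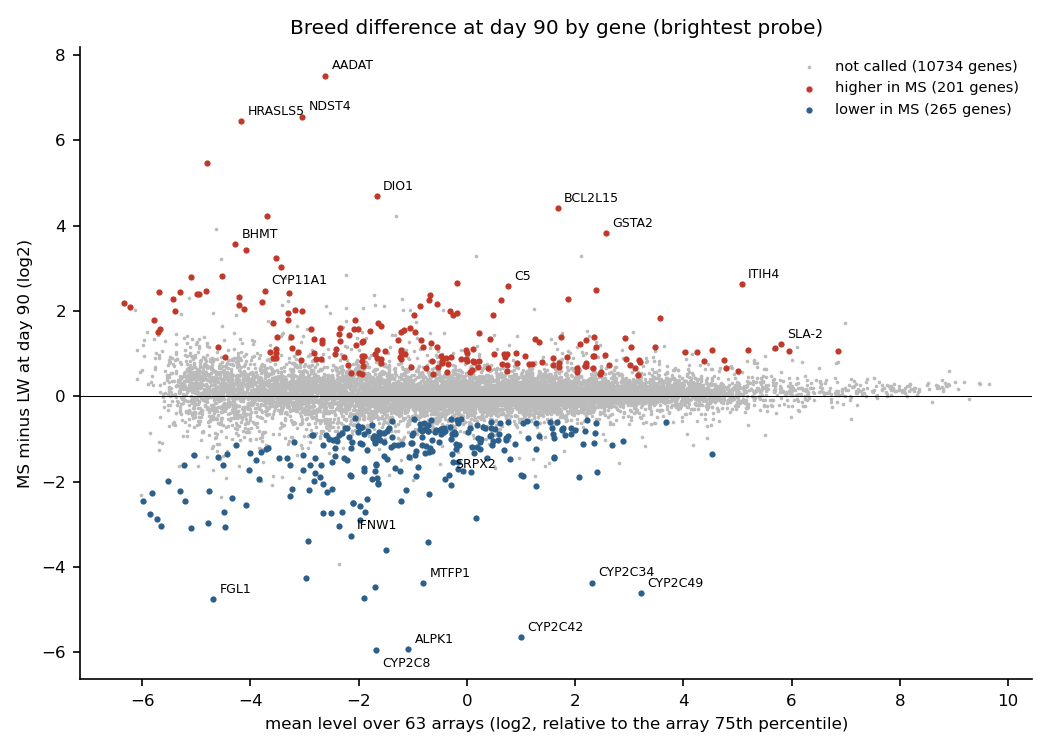
Breed difference of each gene at day 90 (vertical axis, MS minus LW, log2) against its mean level over the 63 arrays (horizontal axis, log2, array 75th percentile set to 0). Each point is 1 of 11200 genes by its brightest probe, with the 201 called higher and the 265 called lower in MS in colour; the differences reach 7.51 for AADAT and -5.95 for CYP2C8.

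The genes with the largest differences towards MS included several enzymes. AADAT, which codes for an aminotransferase of lysine and tryptophan breakdown, had levels of -8.57 to -4.26 in LW (median -8.03) and of -1.20 to 1.11 in MS (median -0.01). It was not well above background on any LW array and was so on all 6 MS arrays, which put MS at least 41.7-fold higher (fitted difference 7.51, SE 0.82, adjusted p = 5.71e-10 with limma). The other AADAT probe differed by 5.95, and in the MS and LW fetuses of day 110 the difference of the brightest probe was 7.46. DIO1, a deiodinase that turns thyroxine into the active thyroid hormone, spanned -7.64 to -4.34 in LW (median -5.77) and -2.23 to -0.13 in MS (median -1.23), a difference of 4.69 (SE 0.69, adjusted p = 1.11e-06 with limma). The groups did not overlap for either gene. Without LW fetus 484 and MS fetus 532, the differences of AADAT and DIO1 were 7.88 and 4.72.

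GSTA2, a glutathione S-transferase that detoxifies reactive compounds, split the LW fetuses. Its level was between 1.38 and 3.07 in 6 LW fetuses and between -4.65 and -3.40 in LW fetuses 500, 894 and 895, while all 6 MS fetuses lay between 3.34 and 4.41. The difference was 3.82 (SE 0.83, adjusted p = 0.00131 with limma), and the other GSTA2 probe showed the same LW fetuses low, at -5.57 to -4.02. The call of GSTA2 was lost when the 15 arrays were fitted alone (3.82, adjusted p = 0.0675 with limma). BHMT, which remethylates homocysteine with betaine, had a difference of 3.57 (SE 0.83, adjusted p = 0.00257 with limma), with LW at -6.37 to -2.93 and MS at -2.34 to -0.44. Its call was lost without MS fetus 524 (3.37, adjusted p = 0.0112 with limma). BHMT2, its neighbour in the gene order, was higher by 2.33.

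The further genes with the largest differences in this direction had varied roles. NDST4, an enzyme of heparan sulphate modification, spanned -7.0 to -2.68 in LW (median -6.13) and -0.16 to 2.36 in MS (median 0.87), a difference of 6.55 (SE 1.08). HRASLS5, an acyltransferase of phospholipids, spanned -8.43 to -3.29 in LW (median -7.75) and -1.74 to 0.06 in MS (median -0.40), a difference of 6.46 (SE 0.92). Few LW arrays showed these genes above background, 3 of 9 for NDST4 and 1 of 9 for HRASLS5. BCL2L15, a member of the BCL2 family of cell death regulators, was well above background on all 15 arrays, with means of -1.46 ± 0.59 (SD, n = 9) for LW and 2.95 ± 0.50 (SD, n = 6) for MS. TMEM52B, VMO1, HSPB3 (a small heat shock protein), GREB1 (an oestrogen-responsive gene) and SALL3 (a zinc finger transcription factor) were higher by 3.43, 3.24, 2.83, 2.79 and 2.66. The call of VMO1 was lost when any of 12 fetuses was left out (adjusted p of 0.0132 to 0.0244 with limma, difference of 3.11 to 3.37).

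**Figure D2:**
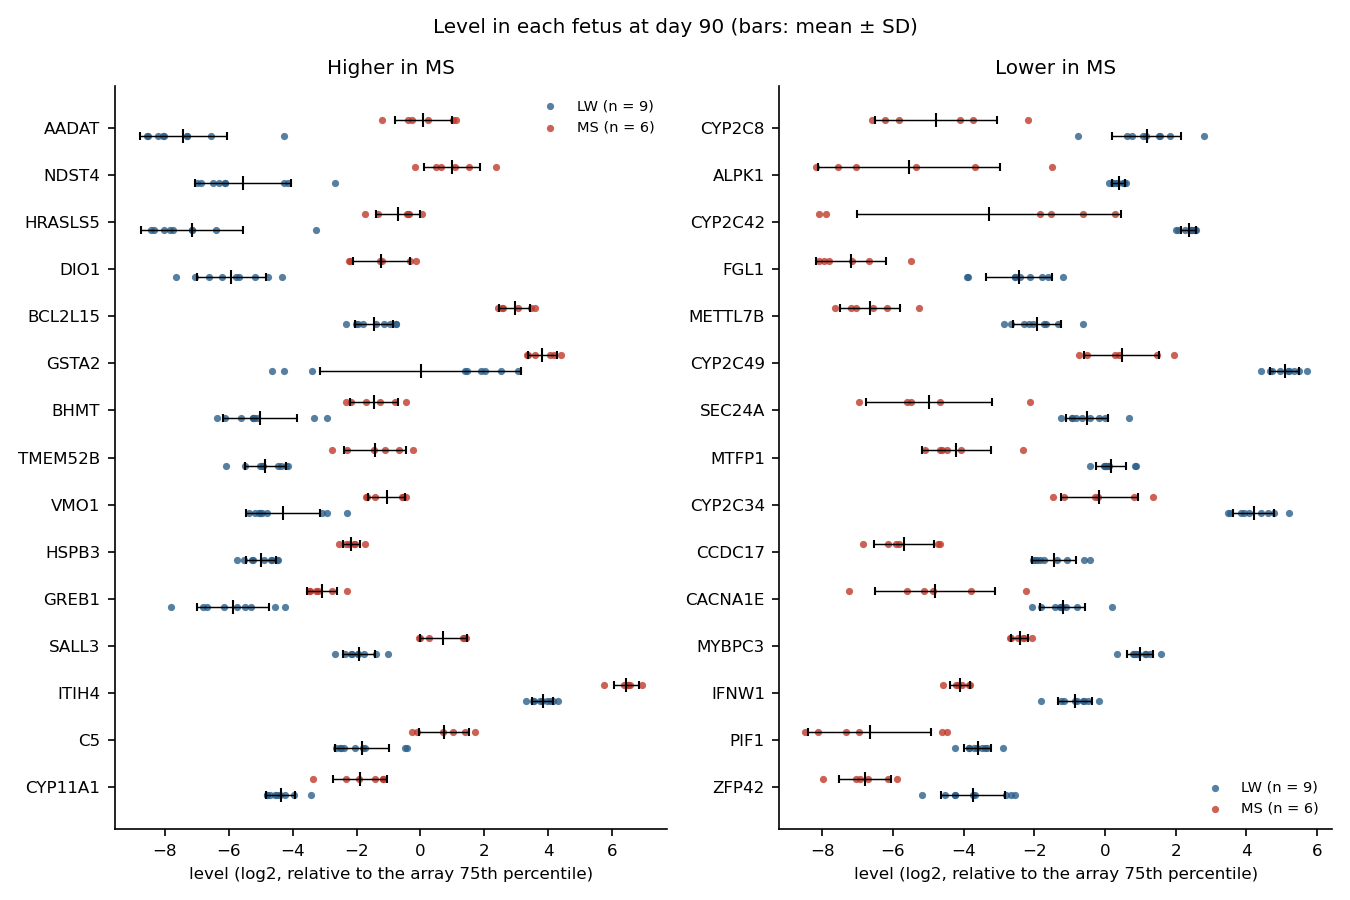
Level of each fetus at day 90 (horizontal axis, log2, array 75th percentile set to 0) for the 15 genes with the largest difference in each direction among called genes whose groups did not overlap; each point is 1 fetus, 9 LW and 6 MS, and bars are the mean ± SD. The LW fetuses fall into separate clusters for GSTA2 and the MS fetuses for CYP2C42, where 4 lie between -1.84 and 0.29 and 2 near -8.

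Of the plasma proteins, 3 of 18 tested were higher and none lower in MS (median 0.27), where 1.79% of all genes were higher. ITIH4, the major acute-phase protein of the pig, was well above background in both breeds, at 3.31 to 4.31 in LW (median 3.82) and 5.76 to 6.95 in MS (median 6.51), a difference of 2.62 (SE 0.62, adjusted p = 0.00342 with limma). It lost its call without MS fetus 524 (2.52, adjusted p = 0.0120 with limma). TF, the iron carrier transferrin, was higher by 2.01 (SE 0.47), and its call was lost without MS fetus 524 or 827 (1.84 and 1.89, adjusted p = 0.0155 and 0.0121 with limma). FGB, the beta chain of fibrinogen, was not well above background on any LW array and was at least 1.59-fold higher in MS. Its call was lost with the 15 arrays fitted alone (adjusted p = 0.0141 with limma). Of the purebred groups and the day 90 crosses, only MS at day 90 held FGB above background on enough arrays for testing. A plasma protein dim in every group would not be among the 18. APOH, another plasma protein, had a difference of -3.94 that did not pass (adjusted p = 0.0171 with limma), although its groups did not overlap. In the complement list, C5, the precursor of a chemotactic peptide and of the lytic complex, was higher by 2.58 (SE 0.43, adjusted p = 1.78e-05 with limma), with LW at -2.65 to -0.43 and MS at -0.27 to 1.70. CD46, a cell surface inhibitor of complement, was higher by 1.6 (SE 0.29), and the other 25 of 27 tested genes of that list were not called (median 0.03).

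CYP11A1 codes for the side-chain cleavage enzyme that makes pregnenolone from cholesterol, the first step of steroid hormone synthesis. All 6 of its probes were called higher in MS, where 1.36% of all probes were. These are 3 of them, shown because they lie in separate parts of the transcript and give different sizes. The number is the base at which the probe starts in the transcript of the array annotation, and the capitals in the last mark the bases it shares with a probe shifted along the same transcript.
CYP11A1 probe at base 325: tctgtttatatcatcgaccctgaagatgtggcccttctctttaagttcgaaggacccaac
CYP11A1 probe at base 903: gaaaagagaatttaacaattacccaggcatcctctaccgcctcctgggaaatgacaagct
CYP11A1 probe at base 1478: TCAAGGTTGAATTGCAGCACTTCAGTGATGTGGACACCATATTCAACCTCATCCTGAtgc
The probe at base 325 differed by 2.74 (SE 0.44) and the one at base 903, the brightest over the series, by 2.48 (SE 0.33). At base 1478 the difference was 6.71 (SE 0.71, adjusted p = 2.25e-10 with limma). It was above the background threshold on none of the LW arrays, where it spanned -8.21 to -4.99, and lay at -2.74 to 0.92 in MS, at least 37.4-fold higher. A second spot design with the same sequence gave 6.46, the shifted probe, which shares 57 bases, gave 6.88, and a probe starting at base 1790 gave 6.92. In the adrenal cortex and gonad marker list, CYP11A1 was the 1 called gene of 6 tested, and CYP17A1, another enzyme of that pathway, had a difference of 0.81 (adjusted p = 0.676 with limma). The median of that list was 0.53, and its other members were FDX1, HSD3B1, INHA and NR0B1, with differences of 0.18 to 0.53.

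Cytochrome P450 enzymes of the CYP2C family, which oxidise drugs, fatty acids and steroids, were lower in MS. All 7 tested probes of its 4 genes were called, with a median difference of -4.61, where 2.21% of all probes were called lower. CYP2C49 is represented by 4 of them, of which 3 are printed here because they bind separate stretches of 1 transcript, and no part is in capitals because nothing is shared.
CYP2C49 probe at base 636: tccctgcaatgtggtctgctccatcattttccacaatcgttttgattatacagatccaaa
CYP2C49 probe at base 973: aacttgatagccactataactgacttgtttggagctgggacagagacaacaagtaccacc
CYP2C49 probe at base 1240: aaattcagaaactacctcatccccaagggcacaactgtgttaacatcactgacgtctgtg
Their differences were -4.03 (SE 0.65), -3.93 (SE 0.80) and -4.85 (SE 0.70). The brightest CYP2C49 probe spanned 4.41 to 5.71 in LW (median 5.17) and -0.73 to 1.94 in MS (median 0.34), a difference of -4.61 (SE 0.71, adjusted p = 3.69e-06 with limma). CYP2C34 spanned 3.47 to 5.19 in LW and -1.49 to 1.36 in MS and was lower by 4.36 on the log2 scale. No LW fetus reached down to an MS fetus for either gene.

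CYP2C42 was at 2.0 to 2.57 in all 9 LW fetuses. In MS it was at -8.09 and -7.91 in fetuses 826 and 827, under the background threshold, and between -1.84 and 0.29 in the other 4, and the difference was -5.65 (SE 0.75, adjusted p = 1.16e-07 with limma). CYP2C8 did not share that split. Its lowest MS values, -6.61, -6.23 and -5.83, were those of fetuses 532, 524 and 952, while fetuses 826 and 827 were at -2.19 and -3.73, and LW spanned -0.77 to 2.81. No pair of probes from different genes of the family shared more than 7 bases in a row. The probes were not set against the transcripts of the other genes, so binding to several of them was not tested. Without LW fetus 484 and MS fetus 532, the differences of CYP2C8, CYP2C42, CYP2C49 and CYP2C34 were -5.64, -6.16, -4.39 and -4.20. CYP2C34, CYP2C49 and CYP2C42 are consecutive among the tested genes in the RefSeq gene order of Sscrofa11.1. In the list of xenobiotic metabolism, where the CYP2C genes stand as 1 entry and GSTA1 stands for GSTA2, that entry was the 1 call among 28 (median -0.13).

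Among the other genes with the largest fall, several code for enzymes and channels. ALPK1, a kinase that senses a bacterial sugar, was at 0.10 to 0.59 in all 9 LW fetuses and at -8.19 to -1.49 in MS, a difference of -5.93 (SE 0.61, adjusted p = 6.65e-11 with limma). A second ALPK1 probe differed by -4.58 and the remaining one by -0.51 (adjusted p = 0.184 with limma). FGL1, a fibrinogen-like secreted protein, was not well above background on any MS array and was at least 8.81-fold lower there. METTL7B, a methyltransferase, spanned -2.87 to -0.63 in LW and -7.64 to -5.27 in MS, a difference of -4.72 (SE 0.47).

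MTFP1, a protein of mitochondrial fission, had the smallest SE of this group, 0.26, at a difference of -4.37 (adjusted p = 7.56e-20 with limma). It spanned -0.42 to 0.87 in LW (median 0.03) and -5.10 to -2.32 in MS (median -4.55), its second probe differed by -4.44, and the difference at day 110 was -5.65. SEC24A, a coat protein of vesicles that leave the endoplasmic reticulum, was lower by 4.47 on 1 probe, while its other 2 probes differed by 0.08 and -0.36 and were not called. MS fetus 532 had no value for the called SEC24A probe. IFNW1, a type I interferon, spanned -1.80 to -0.16 in LW and -4.59 to -3.81 in MS, a difference of -3.26 (SE 0.29, adjusted p = 8.69e-13 with limma). CCDC17, CACNA1E (a calcium channel subunit), MYBPC3 (a myosin-binding protein of striated muscle), PIF1 (a DNA helicase) and ZFP42 (a transcription factor of pluripotent cells) had differences of -4.25, -3.61, -3.41, -3.06 and -3.05. ZFP42 was not well above background on any MS array and was at least 3.6-fold lower. The second PIF1 probe differed by -0.23 and was not called. Under another background correction (normexp), PIF1 and ZFP42 were at -0.69 and -0.64 and lost their calls (adjusted p = 0.0196 and 0.0882 with limma).

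Of 30 tested genes of antigen presentation, 6 rose in MS, where 1.79% of all genes did, none fell, and 29 had a positive difference (median 0.54). Among them were SLA-1 (1.06), SLA-2 (1.21), SLA-3 (1.07), SLA-5 (1.09) and SLA-8 (1.5), class I genes, which show peptides of the cell interior to T cells. SLA-8 spanned -2.11 to -1.16 in LW (median -1.56) and -1.30 to 0.70 in MS (median 0.25), with an adjusted p of 0.000101 by limma, and SLA-2 spanned 4.69 to 5.99 in LW (median 5.09) and 5.47 to 7.01 in MS (median 6.57). The groups overlapped in all 6. All 24 tested probes of the 8 class I genes had a positive difference, and 12 were called, where 1.36% of all probes were called higher. Of 228 pairs of probes of different class I genes, 4 shared at least 15 bases, so these values may come from overlapping targets. SLA-1, SLA-5, SLA-2 and SLA-3 are consecutive among the tested genes. Without fetuses 484 and 532, SLA-2 and SLA-8 were the called members (median 0.38), and with arrays centred on their median 3 were called. SLA-5 also lost its call without MS fetus 524, 532 or 952 (0.97 to 1.03, adjusted p of 0.0110 to 0.0177 with limma).

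Interferon-stimulated genes had a median of 0.54 as well, with 2 of 39 called, where 4.16% of all genes were. GBP1, a GTPase induced by interferon, was higher by 1.0 (SE 0.21) and spanned -0.58 to 0.52 in LW and 0.46 to 1.11 in MS. IRF1, a transcription factor of interferon responses, was higher by 0.81 (SE 0.17), and its groups did not overlap. ISG15, OAS1 and GBP5 had differences of 1.05, 1.03 and 1.06 that did not pass (adjusted p = 0.284, 0.317 and 0.0682 with limma). CXCL9, a chemokine that attracts T cells, was the 1 call of 31 chemokines and cytokines, at 1.99, and the call was lost when any of 11 fetuses was left out (1.79 to 2.09, adjusted p of 0.0102 to 0.0403 with limma). The call of CXCL9 was also lost with the slide as a block (1.92, adjusted p = 0.0166 with limma).

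None of the 28 genes of mucosal defence was called, although the median was 0.47. REG3A and REG3G, antibacterial lectins of the epithelium, had differences of 3.28 and 3.30 (adjusted p = 0.0222 and 0.0219 with limma). REG3A lay at 0.51 to 3.6 in 5 MS fetuses and at -5.63 in MS fetus 766, against -4.07 to -0.40 in LW. Fetus 766 was also the lowest for REG3G, at -6.47. Erythroid markers called higher included AHSP (1.96), which binds free alpha globin, KLF1 (1.02), a transcription factor of red cell precursors, and TFRC (1.15), the receptor that takes up transferrin. The globins HBA1 and HBB had differences of 0.80 and 1.19 (adjusted p = 0.195 and 0.259 with limma). At day 110 no erythroid marker was called (median 0.40). Without fetuses 484 and 532, 4 were called (median 1.26), and with quantile normalization or the authors' values 2 were. B cell, mast cell and granulocyte, and pancreatic markers had medians of 0.63, 0.58 and 0.65 with 0 called of 8, 7 and 6.

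Lipid and sterol genes moved in small numbers. In cholesterol synthesis, 2 of 16 genes fell and 1 rose (median -0.01), where 2.37% of all genes fell and 1.79% rose. SQLE, the epoxidase of squalene, was lower by 1.19 (SE 0.20), MSMO1, a sterol methyl oxidase, by 0.91 (SE 0.19), and SREBF1, a transcription factor of lipid synthesis, was higher by 0.94 (SE 0.20). Without LW fetus 484 and MS fetus 532, MSMO1 was at -0.75 and lost its call (adjusted p = 0.0101 with limma). MSMO1 and SREBF1 each had 1 called probe of 4 tested. With the median over the probes of a gene both lost their call (-0.09 and 0.37, adjusted p = 0.848 and 0.320 with limma). SQLE spanned 0.16 to 1.21 in LW and -1.53 to -0.20 in MS, without overlap. Of 23 genes of fatty acid oxidation and ketogenesis, 2 fell and none rose (median 0.10), where 2.37% of all genes fell. ACOX2, which starts the oxidation of branched fatty acids in peroxisomes, was lower by 0.98 (SE 0.17).

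None of the brush-border hydrolases (20 tested, median 0.11), genes of fat uptake and lipoprotein assembly (22, median 0.31), glycolysis and lactate genes (23, median -0.04), cell cycle genes (28, median 0.07) or claudins and junction genes (26, median 0.17) was called. Among hexose transport, fructose use and gluconeogenesis, 2 of 18 passed, where 4.16% of all genes did. They were FOXO1 (-0.81) and CREB1 (0.54), both transcription factors of fasting metabolism. With the median over the probes of a gene both lost their call (-0.06 and 0.27, adjusted p = 0.899 and 0.141 with limma). SLC1A1, a carrier of glutamate and aspartate, rose by 1.58 (SE 0.28), the 1 call of 12 peptide and amino acid transporters. ARG1, which splits arginine to urea and ornithine, was higher by 2.40 and lost its call without MS fetus 827 (2.10, adjusted p = 0.0250 with limma). IVD, a dehydrogenase of leucine breakdown, fell by 1.05 on the log2 scale. UQCRC2, a core subunit of respiratory complex III, was the 1 call of 52 oxidative phosphorylation subunits, at -1.04, and its call was lost without LW fetus 484 or MS fetus 532, 766 or 952 (-1.02 to -0.93, adjusted p of 0.0102 to 0.0124 with limma).

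In the matrix list, COL18A1, a collagen of basement membranes, spanned 4.28 to 5.14 in LW and 5.73 to 6.22 in MS and was higher by 1.09 (SE 0.16). LUM, a proteoglycan of collagen fibrils, was lower by 0.74 and lost its call when any of 12 fetuses was left out (adjusted p of 0.0103 to 0.0288 with limma, difference -0.77 to -0.68), and SRPX2, a secreted protein of blood vessel growth, was lower by 1.84. Over that list the median was -0.12 (38 tested). MAPK3 (0.86), APC (0.77), ISX (1.03), DNAJB1 (0.81), BMPR1A (-0.59) and SCNN1B (-1.93) were the remaining calls, in signalling, crypt, epithelial transcription, heat shock, BMP and ion transport lists. Calls were lost without MS fetus 952 for APC (0.73, adjusted p = 0.0110), without fetus 532 for BMPR1A (-0.53, adjusted p = 0.0106) and without MS fetus 524 or 532 for SCNN1B (-1.63 in both), all with limma. ISX lost its call without 3 of the 15 fetuses (0.78 to 0.96), DNAJB1 without 8 (0.65 to 0.81) and CREB1 without 9 (0.47 to 0.55). Over the 27 lists of functions, 694 genes were tested and 38 called (26 higher, 12 lower), where 4.16% of all genes were called. List medians ran from -0.13 to 0.54, and 21 lists held a called gene.

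**Figure D3:**
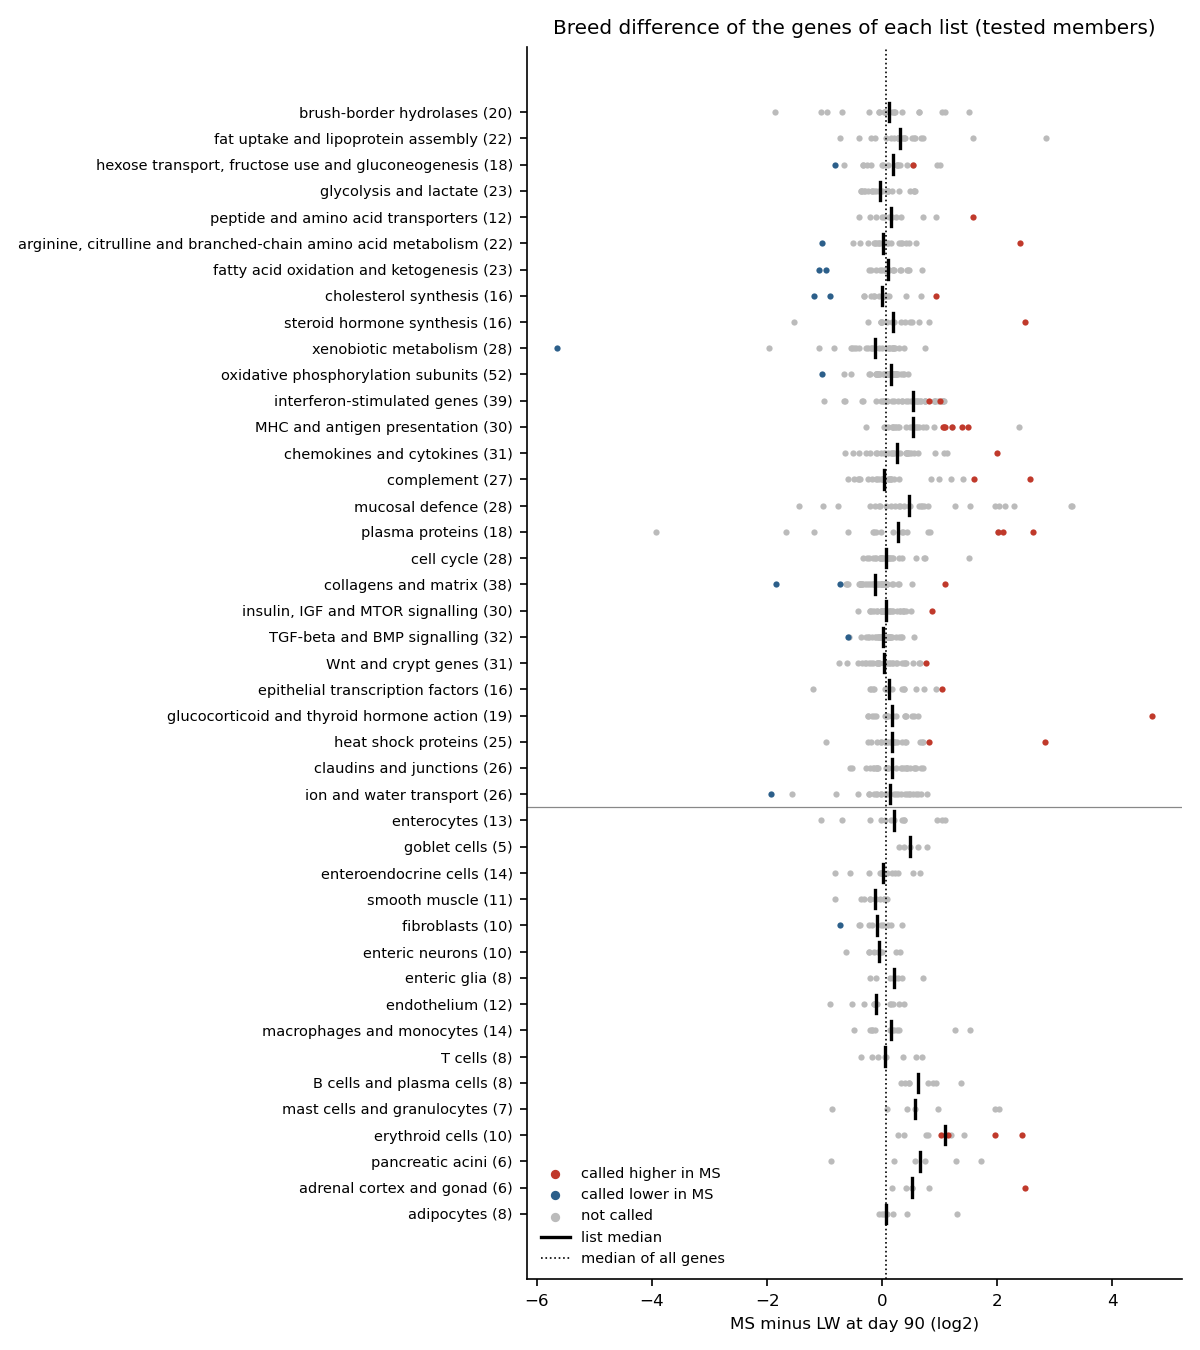
Breed difference at day 90 (horizontal axis, MS minus LW, log2) of each tested gene in 27 lists of functions and, under the line, 16 lists of cell type markers (number tested in brackets). Points in colour were called, black bars are list medians and the dotted line is the median of all genes, 0.06; the erythroid median lies farthest from it, at 1.09.

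From the text of the study, 27 of the genes it names for its arrays were picked, which is not all of them, and 26 were tested here. These genes are not independent of the present fetuses. At day 90, 5 of the 26 were called, where 4.16% of all genes were. They were SRPX2, GBP1, CYP11A1, DIO1 and SDCBP2, a syntenin that binds membrane lipids (1.30, SE 0.32). SDCBP2 lost its call when any of 7 fetuses was left out (1.19 to 1.27, adjusted p of 0.0103 to 0.0213 with limma). G6PC and PCK1, the enzymes that make and release glucose, had differences of 1.0 and 0.26 (adjusted p = 0.304 and 0.804 with limma), and PPARGC1A, a coactivator of mitochondrial genes, of -0.34 (adjusted p = 0.370 with limma). HNF4A, a transcription factor of the epithelium, had 0.73 (adjusted p = 0.0180 with limma), and 1 of its other 4 probes was called, at 0.99. KHK, which phosphorylates fructose, LDHA, IGF1R, MTOR, CD163 and CCL2 had differences of 0.02, -0.37, 0.17, 0.05, -0.18 and 0.09, none of which passed, although another IGF1R probe was lower, at -1.25. Of 6 probes of NR3C1, the glucocorticoid receptor, 1 was called lower, and their differences ran from -2.21 to 0.40. GBP7 depended on the probe. Its brightest probe had a difference of -1.01 (adjusted p = 0.0190 with limma), and its other 3 probes were called higher, at 1.66, 1.91 and 1.66.

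At day 110, in 7 MS and 9 LW fetuses that share no animal with day 90, 461 of the 466 genes had the same sign (98.9%, against 70.9% of all genes), 261 were called the same way and 0 the opposite way. In all, 627 genes (5.6%) were called there, 259 higher (2.31%) and 368 lower (3.29%), and 2024 probes (5%), 747 higher (1.84%) and 1277 lower (3.15%). The breed by age interaction was called for 7 probes (0.0173%), 6 of them positive (0.0148%) and 1 negative (0.00247%), and for 0 of the brightest probes of the 466 genes. Over all genes, 1 brightest probe was called (0.00893%). CYP11A1 held 4 of the 7, with interactions of 6.67 to 7.53, since these probes differed by -0.95 to 0.25 at day 110 and were well above background on no MS array there. A GBP1 probe changed from 1.38 at day 90 to -0.33 at day 110 (interaction 1.71, adjusted p = 0.00693 with limma), and a MAP2K1 probe from -0.63 to 0.72 (interaction -1.34, adjusted p = 0.000353 with limma). DIO1, GSTA2, HSPB3, NDST4 and ALPK1 had the largest interactions among the called genes, 4.44, 3.6, 2.54, 2.76 and -2.49, and none passed (adjusted p = 0.0445, 0.337, 0.167, 0.806 and 0.386 with limma). Their differences at day 110 were 0.25, 0.22, 0.28, 3.79 and -3.44.

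Crossbred fetuses of day 90 are other animals with either sow. Between LWMS (n = 9) and MSLW (n = 8), 15 genes were called (0.134%), 3 higher in LWMS (0.0268%) and 12 lower (0.107%), and 65 probes (0.16%), 9 higher (0.0222%) and 56 lower (0.138%). Of the 466 genes 9 were called with the sign of MS minus LW and 0 with the opposite sign. The sign was the same in 281 of them (60.3%), against 58.4% of all genes. The study places SRPX2 on the X chromosome and, with male fetuses only, takes its copy to be maternal. An effect of the sow therefore cannot be told apart from the inherited copy. Each cross lay near the breed of its sow for SRPX2. In the purebreds it was 0.08 to 0.85 in LW (median 0.56) and -1.68 to -0.97 in MS (median -1.31), while LWMS had a mean of -1.41 ± 0.28 (SD, n = 9) and MSLW one of 0.53 ± 0.22 (SD, n = 8) (difference -1.94, adjusted p = 2.03e-10 with limma). For SCNN1B, a subunit of the epithelial sodium channel, the LWMS mean was -4.47 ± 0.75 (SD, n = 9) and that of MSLW -2.24 ± 0.99 (SD, n = 8). MUM1L1 differed by -0.98 between the crosses and by -1.14 between the breeds, and the former did not pass (adjusted p = 0.0181 with limma). Of the genes with the largest breed differences, AADAT had a mean of -1.89 ± 2.83 (SD, n = 9) in LWMS, against -2.14 ± 2.34 (SD, n = 8) in MSLW. For MTFP1 the means were -0.68 ± 0.29 (SD, n = 9) and -0.88 ± 0.25 (SD, n = 8).

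The probes of a gene share the RNA and the array, so they repeat the measurement and not the fetus. Of 5756 genes with at least 2 tested probes, 3427 (59.5%) had probes of 1 sign only. Over the 33641 pairs of probes of a gene, 72.0% had the same sign, with a Pearson r of 0.51 across pairs, given as a description. The share followed the shared sequence. It was 90.4% of 1013 pairs with the same 60 bases (r = 0.951), 86.7% of 3387 pairs that shared at least 15 bases in a row (r = 0.804) and 69.6% of 29241 pairs without such a stretch (r = 0.459). Where at least 1 probe of a pair was called, both were called the same way in 21 of 29, 47 of 133 and 234 of 1839 pairs. The median gap between the differences of a pair was 0.04, 0.05 and 0.14.

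**Figure D4:**
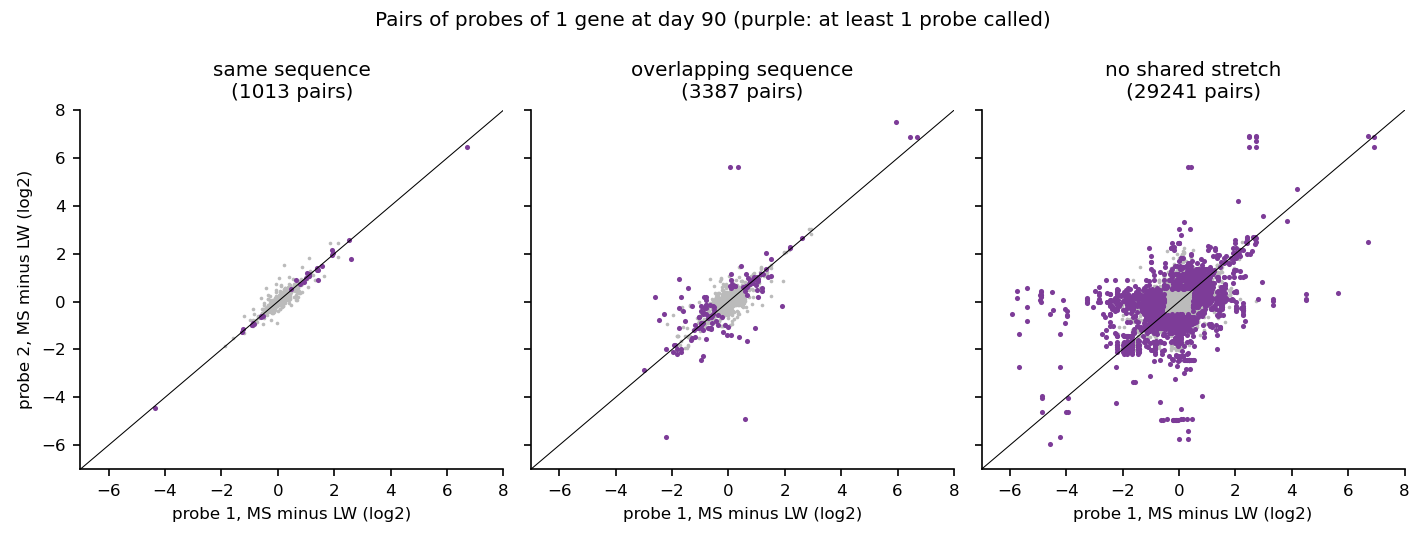
Breed difference at day 90 (MS minus LW, log2) of probe 1 (horizontal axis) against probe 2 (vertical axis) for each pair of probes of 1 gene, for 1013 pairs of the same sequence, 3387 with overlapping sequence and 29241 without a shared stretch; the line marks equal values and purple points have at least 1 called probe. Points spread from the line least for the same sequence, and many purple points of the last panel lie along an axis.

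Among genes with several probes, 512 had at least 1 called probe, and in 380 of them exactly 1 probe was called. Read against the called probe with the largest difference, their other probes of a different sequence numbered 1379, of which 164 (11.9%) were called the same way, 773 (56.1%) had the same sign without a call, 425 (30.8%) had the opposite sign without a call and 17 (1.23%) were called the opposite way. All probes were called in 65 genes. Of 2840 genes with at least 3 tested probes, 12 had all probes called 1 way, and 9 had probes called in opposite directions. The 6 genes of the first kind with the largest median were CYP11A1 (6 probes, 2.48 to 6.92), CYP2C49 (4, -4.85 to -3.93), C5 (3, 2.0 to 2.58), BTNL2, a butyrophilin-like regulator of T cells (3, 1.94 to 2.03), NRAS, a small GTPase of growth signalling (3, 1.33 to 1.42), and MUM1L1 (3, -1.60 to -1.14). The 3 NRAS probes have 1 sequence, and its brightest probe lost its call without MS fetus 827 (1.12, adjusted p = 0.0117 with limma).

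**Figure D5:**
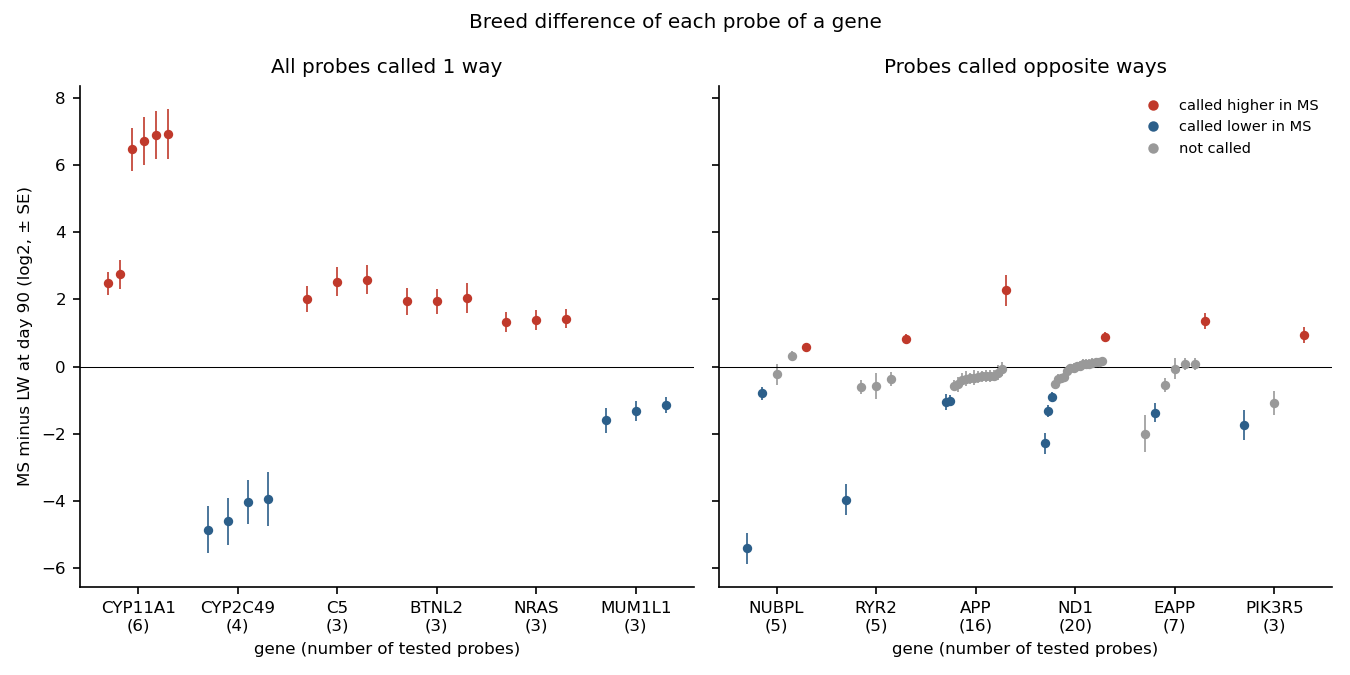
Breed difference at day 90 (vertical axis, MS minus LW, log2, bars ± SE) of every tested probe of 12 genes (number of probes in brackets), 6 with all probes called 1 way and 6 with probes called opposite ways. The CYP11A1 probes fall near 2.5 and between 6 and 7, and the NUBPL probes run from -5.41 to 0.57.

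Of the 9 genes with at least 3 tested probes and opposite calls, the 6 with the widest gap between them were NUBPL, RYR2, APP, ND1, EAPP and PIK3R5. NUBPL, an assembly factor of respiratory complex I, had 5 probes with differences of -5.41 (SE 0.46), -0.80, -0.23, 0.32 and 0.57 (SE 0.13). The first did not pass the background threshold on an MS array and spanned -3.11 to -0.69 in LW, whereas the last spanned -2.53 to -1.98 in LW and -1.86 to -1.43 in MS. RYR2, a calcium release channel of muscle, had probes at -3.96 and 0.83 and 3 uncalled ones between -0.62 and -0.38. Of 16 probes of APP, the amyloid precursor protein, 1 was higher (2.26) and 2 were lower (-1.05 and -1.02), and of 7 probes of EAPP, 1 was higher (1.36) and 1 lower (-1.38). The higher APP probe was well above background on 1 of 9 LW arrays.

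ND1, a mitochondrial subunit of complex I, had 20 tested probes, 3 lower and 1 higher in MS. The array annotation places the 2 lower ones printed here at bases 400 and 410. They share the 44 bases in capitals and differ in the bases just before them, and their differences were -0.89 (SE 0.15) and -2.29 (SE 0.30).
ND1 probe at base 400: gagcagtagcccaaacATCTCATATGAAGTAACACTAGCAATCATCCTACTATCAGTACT
ND1 probe at base 410: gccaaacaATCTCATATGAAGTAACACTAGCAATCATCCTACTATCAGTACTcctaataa
The first spanned 5.09 to 5.87 in LW and 4.15 to 4.97 in MS, the second 5.32 to 6.02 in LW and 2.26 to 4.59 in MS. The probe starting at base 683 was higher by 0.89 (SE 0.15). Mitochondrial genes varied likewise in their probes, with 5 of 12 lower for ND2 (-2.46 to 0.06), 3 of 25 lower for COX1, and 3 higher and 1 lower of 21 for CYTB. For COX3 0 of 14 were called, and for ATP6 0 of 9. Of all probes, 1.36% were called higher and 2.21% lower.

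PIK3R5, a regulatory subunit of a phosphoinositide kinase, had probes called in opposite directions that lie on the same stretch. Over their 51 aligned bases 2 differ, and the windows of 30 bases printed here hold both, in capitals.
PIK3R5 probe at base 4613: tcGtcctaggacccCaaatggaatttaacg
PIK3R5 probe at base 4604: tcAtcctaggacccAaaatggaatttaacg
Counted from 1 at the 5′ end of the window, the second differs from the first by G3A and C15A. The first had a difference of -1.74 (SE 0.44, adjusted p = 0.00619 with limma) and spanned -4.47 to -2.95 in LW and -6.86 to -3.90 in MS. The second had 0.93 (SE 0.23, adjusted p = 0.00627 with limma) and spanned -2.36 to -1.21 in LW and -1.41 to -0.47 in MS. Its call was lost when any of 7 fetuses was left out (0.85 to 0.93, adjusted p of 0.0129 to 0.0236 with limma). The groups overlapped for both.

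Called genes stood next to each other in the RefSeq gene order of Sscrofa11.1 in some places. Of 10103 tested genes with a place, 412 were called (4.08%), and 27 adjacent pairs were both called, 18 of them in the same direction. A called neighbour was found for 11.9% of called genes and for 7.70% of the others. Beside the CYP2C and class I genes, the runs of 3 were PHACTR1, TBC1D7 and SIRT5 (-1.81, 0.78 and -1.11) and ANXA3, LRAT and FGB (-0.76, 2.41 and 2.10). DIO1 stood next to YIPF1 (0.67), MTFP1 next to SEC14L2 (2.26), and MUM1L1 next to SERPINA7 (-2.46), the thyroxine-binding globulin.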

How the data were processed

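One-colour Agilent arrays measured jejunum RNA from 63 male fetuses, grouped by their labels. The authors deposited linear spot intensity and background-corrected intensity from Agilent Feature Extraction 10.10.1.1, per the submitters' processing notes, together with a log2 matrix of 39446 probes. Each matrix column ranked the probes as the log2 median spot intensity of its array did (Spearman rho of 1.00), and all columns had medians near 8.61. The way the matrix was normalized was not tested. No genome build for the probes is given in the sources used here, so no coordinates are given.

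Background-corrected intensity was put on the log2 scale, spots marked as outliers became missing, and each array was scaled to its 75th percentile. Signals near background are uncertain in size. Testing required that, in some group, 75% or more of the arrays held the probe well above background (40515 of 60305 probes). Of these, 787 lacked a value on at least 1 of the 15 arrays, and the fit used the remaining ones. limma 3.58.1 in R 4.3.3 fitted a mean for each of 8 groups, all 63 arrays sharing 1 variance estimate, with Benjamini-Hochberg adjustment over all probes, two-sided. The study modelled the sow as random; no sow term was possible here. Spots of a probe were averaged, and the brightest probe over 63 arrays stood for a gene. "At least" folds, used where no array of a group held the probe above background, are bounds against the lowest signal that passed, and fitted differences are not bounds.

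A gene name came from the tables of the study (3122 probes), a RefSeq accession (10655) or the files (the rest), and 30734 probes have none. The comparison and lists were chosen with earlier results of these data known. Genes named were the 15 with the largest difference in each direction among called genes without overlap, the leading members of each list, a selection of genes named by the study, the extremes of probe agreement and the 5 largest interactions. Calls for MS minus LW at day 90 were also made on simulated data with 200 of 40515 probes changed. Of the changed probes, 4% were recovered at a log2 change of 0.5, the threshold used, 58.0% at 1 and 90.0% at 2, with 0 false calls. Alternatives were other background corrections and scalings, the authors' values, other filters and thresholds, slide blocks, array weights, fewer arrays, the median over probes and leaving out fetuses. The number of arrays limits the precision. Some called genes and sequences are not reported here.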

Additional observations from a re-analysis of the deposited data

Results flagged for a closer look

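For the genes reported here, the highest or the lowest fetus of a group was set against the others by the ratio of its gap to the group's range. Of 274 groups, 29 (10.6%) passed Dixon's critical ratio, where chance gives about 1 in 20. LW fetus 484 accounted for 14. It was high for AADAT (0.534), APOC2 (0.612), ARG1 (0.548), CSF2 (0.549), HRASLS5 (0.606), HSPA6 (0.608), SC5D (0.771) and SLC1A1 (0.627), and low for APP (0.56), COL18A1 (0.504), FOXO1 (0.602), IVD (0.497), MTOR (0.534) and PPARGC1A (0.636). MS fetus 532 accounted for 4, high for ISX (0.643), MTFP1 (0.631), SFRP5 (0.712) and SULT2A1 (0.699). In the other MS fetuses, 827 was low for ACOX2 (0.686) and IGF1R (0.64), 952 high for BTNL2 (0.796), 826 low for CYP3A4 (0.628), 524 high for NR1H4 (0.66) and 766 low for REG3A (0.665). In the other LW fetuses, 462 was high for ACVR1B (0.494), 458 high for CYP3A4 (0.524), 895 low for GAL3ST1 (0.588), 736 high for SCNN1B (0.501) and 500 high for SLC5A1 (0.557).

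The breed difference at day 90 differed from that at day 110 for 7 probes by the interaction in limma. They were 4 CYP11A1 probes (7.53, 6.67, 7.41 and 7.44), 1 probe each of GBP1 (1.71) and C1ORF63 (1.6), and a MAP2K1 probe (-1.34). The C1ORF63 probe differed by 0.36 at day 90, which did not pass, and by -1.23 at day 110.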

How the results depend on the processing

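Of 65 named genes that were called, 35 were called in the same direction under all 29 alternatives, and 1 value reversed. Over 1881 values, 1727 kept direction and call and 153 lost the call. PIK3R5 reversed with the median over the probes of a gene (-1.08), and so did GBP7, not called before (1.18, adjusted p = 0.00231 with limma). Calls lost under that setting included BMPR1A, CREB1, DNAJB1, FOXO1, MSMO1, SEC24A, SLA-5, SREBF1 and UQCRC2. Array weights gave 2856 probes and 892 genes, and 75 genes of the lists of functions, in place of 1449, 466 and 38. An adjusted p of at most 0.05 gave 2432, 738 and 63. The 38 were 25 with median centring and 58 when the 32 arrays of day 90 were fitted alone. With the 15 purebred arrays of day 90 alone, 397 genes were called. Array weights also moved the probes called at day 110 from 2024 to 5873, the interaction from 7 to 46 and LWMS against MSLW from 65 to 141, and with the authors' values the interaction gave 12. Leaving out 1 fetus at a time gave 1063 (without MS fetus 524) to 1569 probes (without LW fetus 484), 356 to 502 genes, 27 to 38 genes of the lists and 27 to 30 of the 30 genes with the largest differences. Without fetuses 532 and 484, chosen after seeing the data, these were 1234, 402, 27 and 29. Genes that lost their call and kept their direction under that choice included APC, CREB1, CXCL9, ISX, MSMO1, SCNN1B, SLA-5, UQCRC2 and VMO1. The same-sign share of probe pairs was 71.2 to 72.4% over its alternatives. With the slide as a block, 495 genes were called, and of the 65 named ones CXCL9 lost its call. Where a probe lies near background, the size of its difference is uncertain. No paired analysis was possible because fetus numbers do not repeat between the groups, apart from the slides, which were fitted as a block.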
